A study of Prunus persica with 8 samples.

Results

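Late chilling is the step from 475 to 770 chilling units (475CU to 770CU) in flower buds of peach, here the nectarine cultivar Fantasia. It is covered by 4 of the 8 RNA-Seq libraries of the series, 2 labelled 475CU and 2 labelled 770CU. The buds were taken from 10-year-old field-grown trees during the winter arrest, without bud scales, and each replicate came from a small group of trees. All samples therefore share cultivar, orchard and season and carry no treatment other than the natural cold that a chilling unit sums. The 770CU buds were collected 28 days after the 475CU buds, on 1 day per stage, so that stage and collection day cannot be told apart. The other stages, 0CU and 200CU, were used to ask what each feature had done before 475CU. The features described are those whose log2(FPKM + 1) changed by 1 or more between 475CU and 770CU, which were 483 of the 17974 features compared, or 2.69%. A feature was compared where it had at least 1 FPKM (fragments scaled to the length of the feature and the size of the library) in at least 2 of the 4 stages.

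As background, flower buds of peach and other temperate fruit trees are formed in summer and become dormant in autumn. In endodormancy the bud does not grow even in warm conditions, and a genotype has to accumulate its own amount of cold before this block is lifted. Afterwards the bud stays arrested only as long as the weather is cold, while the flower organs inside it resume development. Chromatin regulators, among them DNA methyltransferases, histone methyltransferases and histone deacetylases, are known to take part in the control of such seasonal programmes.

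The authors deposited 1 FPKM value per stage, from 2 libraries. For 21869 of the 22285 features (98.1%) the values could be written as the mean of 2 libraries, each with a whole number of fragments, and the 2 library values were recovered in this way. The effective sizes found were 21918085 and 20038616 fragments for the 475CU pair, against 24881572 and 21361223 for the 770CU pair. With no replicate number attached to them, they are called the larger and the smaller library of a stage, and the values of a stage are given in that order. Over features with at least 50 fragments in both, the log2 ratio of the 2 libraries had an SD of 0.215 in the 475CU pair and 0.212 in the 770CU pair. Features above 100 FPKM were recovered less often, with 405 of 716. Gene names were not given for the identifiers, of which 0 were found in the RefSeq gene table, so that roles are given only for genes that the study itself names.

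Between 475CU and 770CU more features were lower than higher. By the limit of 1, 123 features were higher at 770CU, which is 0.684% of those compared, and 360 were lower, which is 2%. The 123 higher features differed by 1.00 to 3.83 with a median of 1.24, and the lower ones by -1.0 to -4.69 with a median of -1.31. Only 10 of the higher and 34 of the lower features differed by at least 2. Just inside the limit lay features at 1.0010 and -1.0002, and just outside it features at 0.99997 and -0.99973. The median difference over all compared features was 0.0013.

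**Figure D1:**
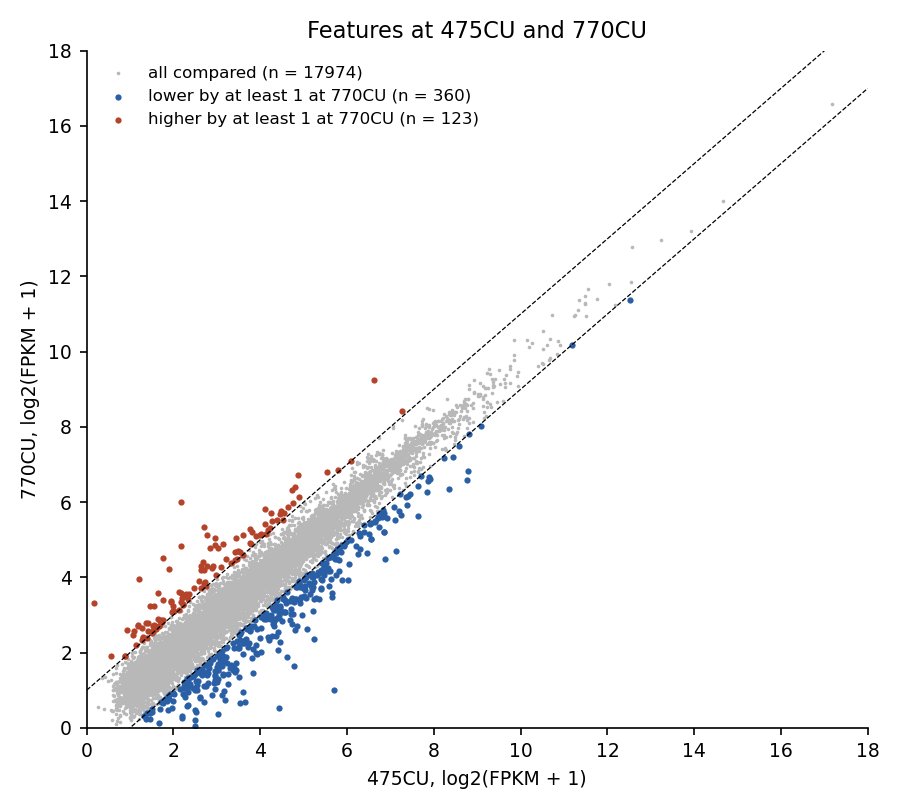
Level of each compared feature at 475CU (horizontal axis) and at 770CU (vertical axis), both as log2(FPKM + 1) of the authors' stage values. The dashed lines mark a difference of 1, and the 360 lower features (blue) lie below and the 123 higher features (red) above the cloud of the 17974 compared features (grey).

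The split between both directions depended on the scaling. The values of the 475CU column summed to 709837 and those of the 770CU column to 598455, and features with ENSRNA identifiers, the annotated non-coding RNA, held 35.0% and 28.6% of these sums. Scaling every stage to equal totals, which is what TPM does, moved the median difference of all features to 0.22 and gave 235 higher and 219 lower features, so that 51.8% were higher in place of 25.5%. Rescaling to the same total without the ENSRNA features gave 161 higher and 278 lower features. Median-ratio factors, which assume that most features do not change, gave 120 and 363. Differences below are on the deposited scale.

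Most of these differences were larger than the spread between the recovered libraries. In the limma test on the 8 recovered libraries, 1906 of 17562 features (10.9%) had an adjusted p below 0.05 between 475CU and 770CU, of which 756 (4.3%) were higher and 1150 (6.55%) lower at 770CU. The recovered values of the 2 stages did not overlap for 10952 features (62.4%). Of the 123 higher features, whose libraries were all recovered, 116 passed the limma test and 121 did not overlap. Of the 338 lower features with recovered libraries, 299 passed and 334 did not overlap. These counts restate the contrast that chose the features and are no independent support. The adjusted p of the features that did not pass ranged from 0.057 to 0.34 for the higher and from 0.0501 to 0.32 for the lower ones. The other 22 lower features could not be recovered and were abundant, with 52.3 to 5912 FPKM (median 203) before the step and 24.4 to 2644 FPKM (median 82.3) after it. Most limma calls were smaller than the limit, since 1491 of the 1906 differed by less than 1 and their median size over all calls was 0.66.

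The calls rested on both libraries of each stage. Without the larger 475CU library 614 features were called, without the smaller 475CU library 860, without the larger 770CU library 732 and without the smaller 770CU library 502. Over the same 4 settings 84 to 92 of the 123 higher and 174 to 269 of the 338 lower features passed, each in its own direction.

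The features higher at 770CU were of low abundance before and those lower at 770CU were of above-average abundance. The median FPKM of the higher features was 3.15 (0CU), 3.52 (200CU), 4.57 (475CU) and 13.8 (770CU). That of the lower features was 19.3, 22.3, 19.0 and 6.16 in the same order of stages, while the median of all compared features lay between 9.62 and 9.73 FPKM at every stage. Without ENSRNA features, the sum over the higher features went from 1260 to 3740 FPKM over the late step, and that over the lower features from 14639 to 5450 FPKM. Below 1 FPKM lay 5 of the higher features at 475CU and 47 of the lower features at 770CU. The rule itself keeps every higher feature at or above 1 FPKM at 770CU, and every lower feature so at 475CU. The filter also leaves out features that reached 1 FPKM at 770CU alone. With no filter on low values 172 features were higher and 362 lower, so nothing is read from how few came on or went off.

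**Figure D2:**
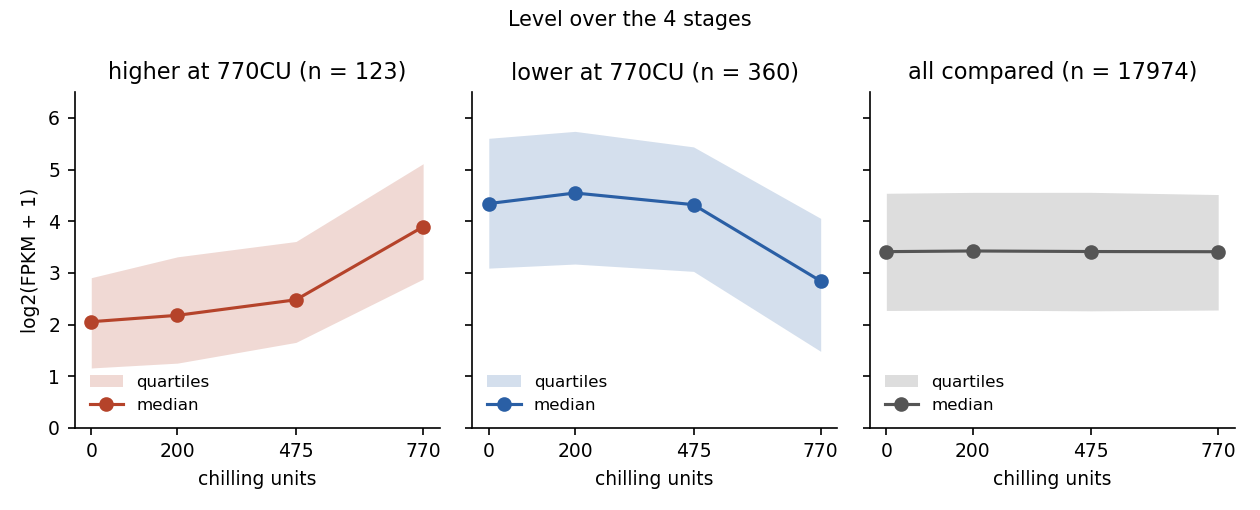
Median (line) and quartiles (band) of log2(FPKM + 1) against chilling units for the 123 features higher at 770CU, the 360 features lower at 770CU and all 17974 compared features. The medians of both groups moved less from 0CU to 475CU than in the late step, which is the difference that chose them, while the median of all features stayed level.

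Most of the chosen features had their extreme stage value at 770CU, which the rule largely fixes and from which nothing is read. Of the higher features 121 of 123 had their highest stage value at 770CU, against 29.6% of all compared features, and their lowest value was that of 0CU in 62, that of 200CU in 42 and that of 475CU in 19. Of the lower features 332 of 360 had their lowest stage value at 770CU, against 29.2% of all. Their highest value was that of 200CU in 167 features (46.4%), that of 0CU in 105 (29.2%) and that of 475CU in 88 (24.4%). Over all compared features, the highest of the first 3 stages was 200CU in 28.7%, 0CU in 39.8% and 475CU in 31.4%. The rule bars 770CU as the maximum of a lower feature and uses the 475CU value, so these shares are a description. A steady level up to 475CU was less common than among all features, with the 475CU column entering this measure and the late difference alike. The values of 0CU, 200CU and 475CU spanned less than 0.5 in 41 of the higher features (33.3%) and 104 of the lower ones (28.9%), against 13218 of all compared features (73.5%). The same direction at all 3 steps was seen in 52 of the higher (42.3%) and 73 of the lower features (20.3%). The share over all compared features was not computed, so nothing is read from these counts.

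The step from 0CU to 200CU shares no column with the late step and was set beside it. Its median difference was 0.065 in the higher features, 0.23 in the lower ones and 0.0064 in all compared features. Of the lower features 114 (31.7%) had been higher at 200CU than at 0CU by at least 0.5, against 9.86% of all compared features, and 58 (16.1%) had been lower by as much, against 6.9%. Of the higher features 32 (26.0%) had been higher and 19 (15.4%) lower by at least 0.5. Both groups thus held larger early differences of either sign than the table as a whole. Across all 17974 features the early and the late difference were nearly unrelated, with a Pearson r of -0.017 and a Spearman rho of -0.025, given as a description over features that share the same libraries and are not independent.

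Most features that differed in late chilling had not differed by the limit before 475CU. From 0CU to 475CU 759 of the compared features (4.22%) differed by at least 1, of which 537 (2.99%) were higher and 222 (1.24%) lower at 475CU. Of the 483 late features, 363 were under the limit over that interval, 73 continued a difference of at least 1 and 47 reversed one. Both intervals share the 475CU column, so that an error in that column adds to reversals and takes from continuations, and no test was made of the courses.

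**Figure D3:**
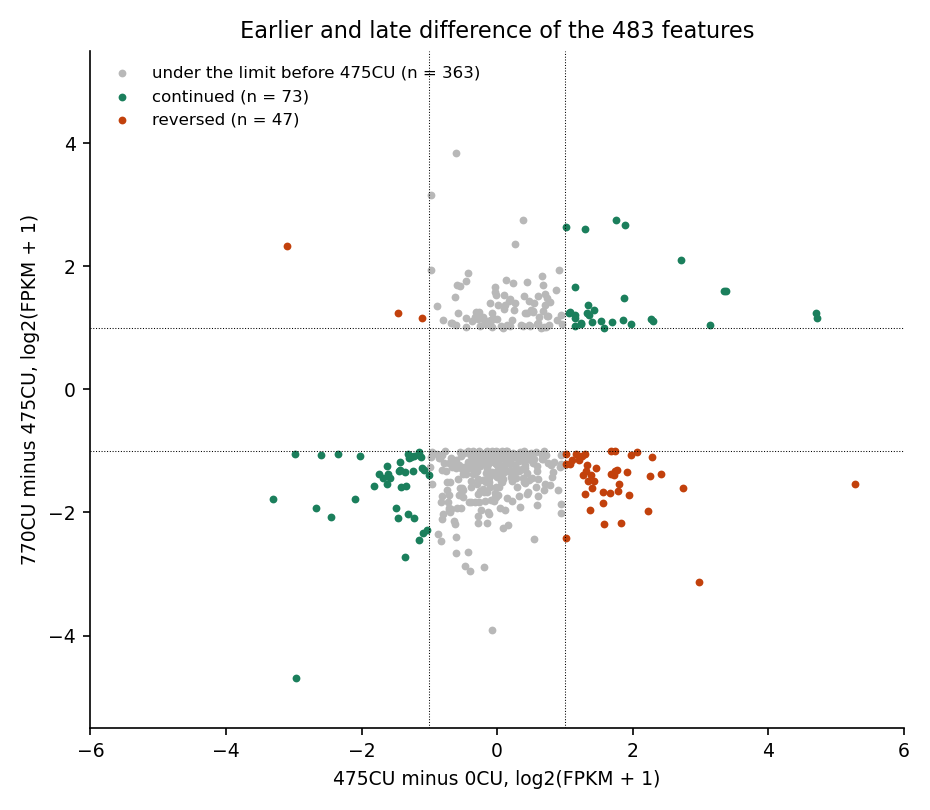
Difference from 0CU to 475CU (horizontal axis) and from 475CU to 770CU (vertical axis) of the 483 features, both on the log2(FPKM + 1) scale, with dotted lines at 1 and -1. The 73 features that continued lie in the upper right and lower left corners, and 44 of the 47 that reversed lie in the lower right corner, where a lower value followed an earlier gain.

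The courses were counted apart for the higher and the lower features. Among the 123 higher features 31 (25.2%) continued an earlier rise in stage values, 3 (2.44%) came after an earlier fall and 89 (72.4%) had been under the limit. By sign alone, 83 of the 123 had gained and 40 had lost in stage value between 0CU and 475CU. Over all 17974 compared features 8837 had gained and 9137 had lost. Among the 360 lower features 42 (11.7%) continued, 44 (12.2%) reversed and 274 (76.1%) had been under the limit. By sign alone, 201 of the lower features had lost and 159 had gained. Over all compared features 537 had gained and 222 had lost by the limit in that interval. The difference in courses between the higher and the lower features was not tested.

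The 31 features that continued to higher values had a median of 1.67, 6.56, 10.2 and 29.4 FPKM from 0CU on to 770CU. Of these, 28 passed the limma test of the late step and 27 passed both it and the test from 0CU to 475CU. The 42 that continued to lower values had a median of 34.5, 16.8, 8.94 and 2.58 FPKM over the same stages. Libraries were recovered for 39 of them, and 32 passed the limma test at both intervals. Both courses were chosen by these same differences, so the counts that passed restate the choice and are no independent support.

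The 44 features that reversed to lower values were, by the way they were chosen, higher at 475CU than before and after. Their median climbed from 4.91 FPKM (0CU) over 13.4 (200CU) to 21.3 (475CU) and stood at 5.98 FPKM (770CU). At 770CU 31 of the 44 were within 0.5 of their 0CU value on the log2 scale, against 13161 of all 17974 compared features. The choice itself contributes to this closeness, and nothing is read from the count. Of the 42 with recovered libraries 35 passed the late test and 34 passed both. The opposite course, higher at 770CU after having been lower at 475CU than at 0CU by the limit, held 3 features, of which 2 carried ENSRNA identifiers. This count depended on the settings and was 20 with a pseudocount of 0.1 and 102 with a limit of 0.5, against 77 and 278 features lower after an earlier gain. The 274 lower features with no earlier difference of 1 had a median of 21.5, 24.3, 19.8 and 6.58 FPKM at the 4 stages in order, and 232 of 257 with recovered libraries passed the late test. The 89 higher ones of this kind had a median of 3.19, 3.13, 3.55 and 10.7 FPKM, and 86 passed. In these courses too, the counts that passed restate the differences that chose the features.

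A feature of each course is given library by library, the one with the largest late difference among PRUPE features whose recovered libraries did not overlap between 475CU and 770CU. The differences, gaps between libraries and adjusted p-values of these features restate this choice and are no independent support. PRUPE_2G139000 continued a rise. It was listed at 0 in both 0CU libraries, and its libraries then held 0.442 and 0.323 FPKM (200CU), 1.77 and 3.004 FPKM (475CU) and 25.5 and 18.2 FPKM (770CU). Every 770CU library was far above every earlier one. The limma difference of the late step was 2.76 with a standard error (SE) of 0.21 and an adjusted p of 0.00067, and the stage value at 770CU was 9.17-fold that at 475CU.

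PRUPE_4G125300 was the single feature with a PRUPE identifier that was higher at 770CU after an earlier fall. Its pairs of libraries stood at 5.22 and 6.86 FPKM (0CU), 0.468 and 0.687 (200CU), 1.86 and 2.68 (475CU) and 6.74 and 5.90 (770CU). The 770CU libraries lay within the range of the 0CU ones, so this feature dipped at 200CU and was back at its first level at the end. The late rise was 1.17 (SE 0.17, adjusted p = 0.0065 in limma), or 2.78-fold in stage values.

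PRUPE_8G098600 continued a fall and had the largest difference of all features compared. Its libraries held 296.6 and 507 FPKM (0CU), 124 and 55.4 (200CU), 61.3 and 39.9 (475CU) and 1.06 and 0.92 (770CU). The libraries of 475CU rested on 1573 and 935 fragments and those of 770CU on 31 and 23. It fell by 4.66 in the late step (SE 0.39, adjusted p = 0.00097 in limma), a stage value 51.0-fold lower at 770CU than at 475CU.

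PRUPE_5G090000 was lower after an earlier rise. Its libraries held 1.95 and 2.94 FPKM (0CU), 7.98 and 2.94 (200CU), 20.3 and 32.2 (475CU) and 1.96 and 2.28 (770CU). Only the 475CU libraries stood clearly apart, and those of 770CU lay within the range of 0CU. From 475CU to 770CU it fell by 3.09 (SE 0.37, adjusted p = 0.0034 in limma), a stage value 12.4-fold lower, after a rise of 2.96 from 0CU to 475CU (adjusted p = 0.0020 in limma).

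**Figure D4:**
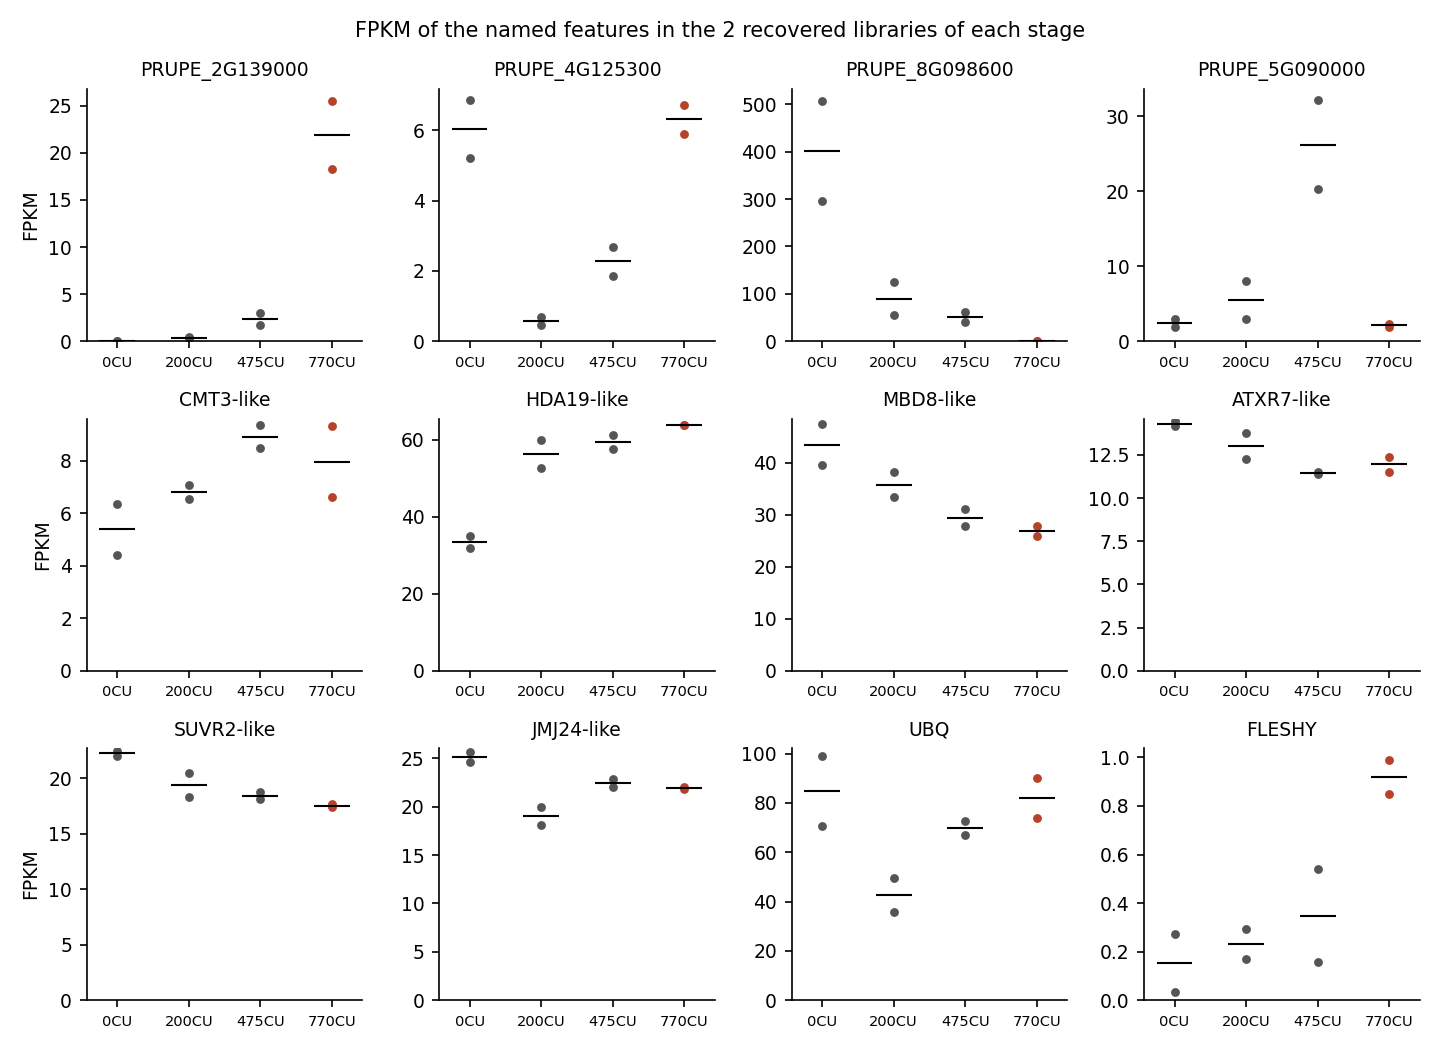
FPKM of the 12 named features in the 2 recovered libraries of each stage (points) with their mean (bar), each panel with its own axis from 0 and the 770CU libraries in red. The 4 features of the top row were chosen for their late difference and show the 4 courses. The 6 chromatin genes and UBQ did not pass the limma test of the late step. In CMT3-like (6.62 and 9.32 FPKM) and UBQ (90.04 and 73.8 FPKM) the 770CU libraries stood apart from each other.

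The 6 chromatin regulators that the study names did not pass the test in late chilling (0 of 6 in limma, against 10.9% of all features tested). At an unadjusted p below 0.05 there were also 0, against 4597 features or 26.2%. With 6 genes a count of 0 is near the adjusted background share and nothing is read from it. Adjusted p-values ran from 0.51 to 0.84. The study linked genes that differed in its RNA-Seq of these buds (adjusted p below 0.05) to genes enriched in histone marks. The 6 genes may therefore have been chosen by their differences in these very samples. Their counts at either interval are no independent result. From 0CU to 475CU 5 of the 6 had passed, against 4946 of 17562 features (28.2%), but the difference between both intervals was not tested, and they share the 475CU libraries.

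CMT3-like (PRUPE_6G011600) encodes a chromomethylase, a DNA methyltransferase that in Arabidopsis maintains methylation at CHG sites. The 475CU libraries held 9.36 and 8.47 FPKM of it and the 770CU libraries 6.62 and 9.32 FPKM. They overlapped, since the 2 libraries of 770CU lay on either side of the smaller 475CU library. The late difference was -0.16 (SE 0.18, adjusted p = 0.64 in limma), and it turned to 0.059 without the larger 770CU library.

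HDA19-like (PRUPE_8G183700) encodes a histone deacetylase, a class of enzyme that removes acetyl groups from histones. The 475CU libraries held 57.4 and 61.1 FPKM and those of 770CU 63.8 and 63.9 FPKM. Both late libraries were above both earlier ones, by a margin smaller than the gap between the 475CU libraries. The late difference was 0.11 (SE 0.090, adjusted p = 0.51 in limma).

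MBD8-like (PRUPE_8G062800) encodes a protein with a methyl-CpG-binding domain. The 475CU libraries held 27.8 and 31.0 FPKM, which overlapped with the 27.9 and 25.9 FPKM of 770CU. The late difference was -0.12 (SE 0.12, adjusted p = 0.56 in limma).

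The other 3 genes act on histone methylation by their families. ATXR7-like (PRUPE_2G042400), of the trithorax-related methyltransferases, went from 11.4 and 11.5 FPKM in the 475CU libraries to 12.4 and 11.5 FPKM in the 770CU ones, a difference of 0.055 (SE 0.085, adjusted p = 0.74 in limma). SUVR2-like (PRUPE_8G216300), of the SU(VAR)3-9-related family, went from 18.1 and 18.8 FPKM to 17.4 and 17.7 FPKM, a difference of -0.068 (SE 0.079, adjusted p = 0.65 in limma). JMJ24-like (PRUPE_6G322900), a protein with a jumonji domain, went from 22.89 and 22.045 FPKM to 22.02 and 21.88 FPKM, a difference of -0.032 (SE 0.076, adjusted p = 0.84 in limma). The libraries of SUVR2-like and JMJ24-like did not overlap between the stages, and those of ATXR7-like nearly touched, but in each gene the step was small. After rescaling to the same total the differences of CMT3-like, MBD8-like, SUVR2-like and JMJ24-like turned positive, and HDA19-like (0.35) and ATXR7-like (0.28) then passed the test, with the median of all features at 0.22 under that scaling.

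The study also names a ubiquitin gene and a fruit gene. UBQ (PRUPE_4G204900), its reference gene in real-time PCR, had 66.9 and 72.5 FPKM in the 475CU libraries and 90.04 and 73.8 FPKM in the 770CU ones, a difference of 0.22 (SE 0.20, adjusted p = 0.54 in limma). FLESHY (PRUPE_6G159200), a HECATE3-like transcription factor that the study links to the flesh of the fruit, stayed below 1 FPKM in every library and was not compared. The 475CU libraries held 0.540 and 0.155 FPKM of it, from 19 and 5 fragments, and the 770CU libraries 0.851 and 0.991 FPKM, from 34 fragments in each. Both 770CU libraries were above all earlier ones, but with so few fragments and no test the value is a description.

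Features lower at 770CU often bore neighbouring identifiers. A PRUPE identifier holds the chromosome number and a running number that follows the order of genes along that chromosome, so that neighbours in number are neighbours in order, while no positions or sequences were read here. The order used counts compared features only. Of the 345 lower features with such an identifier, 86 (24.9%) had another lower feature directly beside them, while 3.85% of all 17107 features with such identifiers had one. Within 5 places the shares were 37.1% and 16%. Of the 114 higher features, 6 (5.26%) had another higher feature beside them, against 1.31% of all. The lower features formed 12 runs of at least 3 neighbours, holding 48 features, and the higher ones 0. Of these runs 7 had 3 members and 4 had 4. The higher features were fewer, with 114 against 345, so the 0 is not read as a difference between the directions. Neighbouring genes can be copies of each other that share reads. How reads with several positions were counted is not given in the sources used here, so that the members of a run need not be independent measurements.

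The longest run held 11 consecutive compared features of chromosome 5, from 2 places before PRUPE_5G090000 to 8 places after it. They were singled out after their values had been seen. Each had been chosen by its late difference, so the values of that step restate the choice and are no independent support. All 11 were lower at 770CU by 1.24 to 3.91, with a median difference of -2.28. For all 11 the recovered libraries of both stages did not overlap, against 62.4% of all features tested. Their stage values spanned 1.76 to 26.2 FPKM (median 5.32) before the late step and 0.042 to 2.12 FPKM (median 0.38) after it. Against 10.9% of all features tested, all 11 passed the limma test, with adjusted p-values from 6.4e-05 to 0.025. Leaving out 1 library left 6 to 9 of them past the threshold.

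The members of the run did not share the earlier course. Their median was 7.84, 8.26 and 5.32 FPKM over the first 3 stages, and only PRUPE_5G090000 had been higher and 1 other lower by at least 1 between 0CU and 475CU. Summed over the 11, the level was 89.4, 97.7 and 95.0 FPKM over these stages and 7.81 FPKM in the 770CU column. Of these sums PRUPE_5G090000 held 2.44 FPKM at 0CU, 5.46 FPKM at 200CU and 26.2 FPKM at 475CU. Without it the other 10 summed to 86.9, 92.2, 68.8 and 5.69 FPKM over the 4 stages. By sign 8 of the 11 were lower at 475CU than at 0CU, and in limma 3 had fallen and 2 had risen over that interval, against 28.2% of all features called. The late difference did not extend to its neighbours by the limit, since the 3 compared features before and the 3 after it differed by -0.47 to 0.019.

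**Figure D5:**
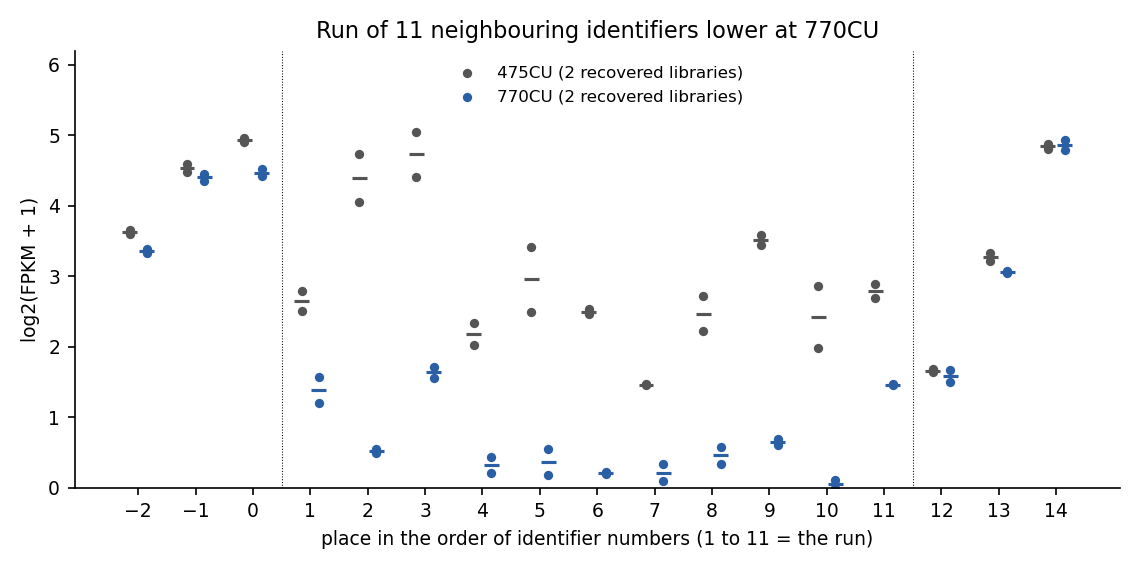
Level as log2(FPKM + 1) in the recovered libraries (points, with their mean as a bar) of 475CU (grey) and 770CU (blue) for the 11 features of the run and the 3 compared features on either side, in the order of their identifier numbers. Inside the dotted lines every 770CU library lies below every 475CU library of the same feature, and outside them both stages lie close together.

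PRUPE_8G098600, the feature with the largest fall, also headed a run, with 2 lower neighbours after it. Both neighbours had been chosen by their late difference too, so their p-values restate the choice. The first neighbour went from 20.1 and 17.96 FPKM to 8.03 and 4.70 FPKM in the late step, a stage difference of -1.44 (adjusted p = 0.0053 in limma). The second went from 27.0 and 20.3 FPKM to 2.59 and 2.85 FPKM, a stage difference of -2.73 (adjusted p = 0.00074 in limma). All 3 had been higher at 0CU than at 475CU, with stage values of 402, 63.1 and 62.3 FPKM at 0CU. The first thus started far above its 2 neighbours, which were close to each other at 0CU, and the late differences were unlike in size. The third was higher at 475CU (23.7 FPKM) than at 200CU (14.8 FPKM).

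By chromosome the lower features made up 1.37% of the compared features on chromosome 7 and 1.43% on chromosome 4, up to 2.39% on chromosome 1 and 2.77% on chromosome 5, where the run of 11 lies. The higher features made up 0.33% on chromosome 7 and 0.884% on chromosome 1. By class of identifier, 115 of the 123 higher and 347 of the 360 lower features were annotated PRUPE features. Of the 518 compared XLOC features, which are assembled loci, 5 were higher and 3 lower. Of the 316 compared ENSRNA features, 3 were higher and 10 lower. Of the 11 with recovered libraries 5 passed the limma test, against 17 of all 306 ENSRNA features tested. Over all classes 415 of the 461 recovered members passed. The 11 were chosen by the same contrast, so this count is no independent support. The members in both directions were short. The recovered feature length, the shortest length that gives whole fragments, had a median of 1493 bases in the higher and 1507 bases in the lower features, against 2264 in all those recovered, and a fraction of the true length may have been found for some.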

How the data were processed

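RNA-Seq of flower buds at 0, 200, 475 and 770 chilling units was used, with 2 libraries per stage in the labels. The authors deposited FPKM, 1 value per stage, for 22285 features. The submitters' processing notes name Trimmomatic 0.39, HISAT2 and featureCounts. Their settings and the genome build of the RNA-Seq are not given in the sources used here. The number of value columns left out was 0. The members, gene lists and rules were chosen with earlier results of these data known.

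Differences are of log2(FPKM + 1), which understates changes of low features, over features that reached 1 FPKM in 2 or more stages. A stage value was written as the mean of 2 libraries with whole fragments and a length of 30 to 20000, with a chance of a false length of at most 0.01. The method was checked on simulated libraries, and so was limma 3.58.1 (R 4.3.3), run with trend on all 4 stages in 1 fit, with Benjamini-Hochberg adjustment over all features tested. The p-values measure the spread between 2 libraries of 1 collection day per stage. Fragment counts cover counting error only. Named are the genes the study names and, for each of 4 courses, the PRUPE feature with the largest late difference among those whose libraries did not overlap. The identifiers were looked up in a RefSeq table of 26412 genes (assembly Prunus_persica_NCBIv2). Alternatives were the pseudocount, filter, limit and scaling and, in limma, a fit of 475CU and 770CU alone, a fit with no trend and fits without each library in turn. Rescaling without ENSRNA features, and quantile normalization in limma, were added after the data had been seen.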

Additional observations from a re-analysis of the deposited data

How the results depend on the processing

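With a pseudocount of 0.1, 789 features differed by at least 1, of which 209 were higher and 580 lower, and 128 continued, 97 reversed and 564 had been under the limit. With a limit of 0.5 these counts were 2096, 746, 1350, 458, 380 and 1258. A mean of at least 5 FPKM left 70 higher features. Rescaling to the same total (TPM) gave 235 higher and 219 lower features, and limma then called 5658 features, 4881 of them higher, while without ENSRNA features in the total it called 1521 higher. Leaving out 1 library gave 502 to 860 limma calls, 202 to 265 higher and 300 to 595 lower. With only 475CU and 770CU in the fit there were 2670 calls. By direction, 31 rises and 42 falls continued, 3 rises came after a fall and 44 falls after a rise. These were 51, 77, 20 and 77 with a pseudocount of 0.1, and 216, 242, 102 and 278 with a limit of 0.5. Under TPM 48 rises and 25 falls continued, and without ENSRNA features 1 rise after a fall was left. Counts not listed here stayed within 1.5 times those reported. Under TPM the differences of CMT3-like (0.060), MBD8-like (0.11), SUVR2-like (0.17) and JMJ24-like (0.20) changed sign. That of CMT3-like also did so without the larger 770CU library (0.059) and ranged down to -0.38 without the smaller one, while those of SUVR2-like (0.037) and JMJ24-like (0.075) in the rescaling without ENSRNA features did so too, as did that of JMJ24-like under quantile normalization (0.014). None of these 4 passed the test in any of these settings. The difference of FLESHY was 0.51, and 1.19 with a pseudocount of 0.1. Over the named features, 115 of 126 other values kept their direction and side of the threshold. The cause of these changes was not tested beyond the construction of each setting. No paired analysis was possible because recovered libraries carry no replicate number. Features with few fragments and the 22 lower features that could not be recovered are those for which depth and the table limit the statements most.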
